A study of Rattus norvegicus with 6 samples.

Results

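The miR-221 and miR-222 pair was followed in small RNA of the rat lens capsule, as all rows of the count table whose names match rno-miR-221 or rno-miR-222, on either arm. This gave 4 names of 910 listed: rno-miR-221-3p, rno-miR-221-5p, rno-miR-222-3p and rno-miR-222-5p. Each of the 4 was counted in at least 1 library, 3 of them held enough reads to be tested, and no name of another species in the table carried either number. The libraries were made from the lens capsules of 6 Sprague Dawley rat pups, 1 library from each animal. In the control group, 3 pups received saline under the skin of the nape on days 3, 5, and 7, and in the Na2SeO3 group 3 pups received sodium selenite, Na2SeO3, at 20 μmol/kg on the same days. The methods start the model with pups 8 days old and take the lens on day 15 of the experiment, without saying how the days and the age relate, and no genetic change is described for either group. Selenite given to young rats is an established way to cause lens opacity through oxidative injury.

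A miRNA is a short RNA that lowers the output of the mRNAs it pairs with, and the bases that choose those mRNAs are mostly the seed, bases 2 to 8 from its 5′ end. The hairpin precursor can give a miRNA from its 5p arm and from its 3p arm, and one arm usually dominates. The miR-221 and miR-222 genes lie side by side on the X chromosome, are made from a shared primary transcript and are known in many tissues for holding down the cell cycle inhibitor Cdkn1b and the receptor Kit. They are abundant in vascular cells and have been studied in lens epithelial cells under oxidative stress.

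The mature sequences are shown because the shared seed is what makes the 3p arms a family, with the seed in capitals and all other bases in lower case.
rno-miR-221-3p: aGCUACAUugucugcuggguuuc
rno-miR-222-3p: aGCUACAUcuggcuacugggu
rno-miR-221-5p: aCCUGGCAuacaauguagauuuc
rno-miR-222-5p: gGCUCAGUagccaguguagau

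The 3p arms of miR-221 and miR-222 were identical over their leading 8 bases, and over the 21 bases that both have, compared position by position without gaps, 11 bases (52.4%) matched. The 5p arms matched at 5 of 21 bases (23.8%) and had different seeds. Among 693 mature rat names in RefSeq, no name outside the pair shared a seed with any of the 4, so that the 3p seed was carried by these 2 names alone. How the authors' counting treated reads shorter than the full arm is not given in the sources used here.

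The precursors show how the arms sit, with both mature arms in capitals and the rest of each hairpin in lower case.
Mir222: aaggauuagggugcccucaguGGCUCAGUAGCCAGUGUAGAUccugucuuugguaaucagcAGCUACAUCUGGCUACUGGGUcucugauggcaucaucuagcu
Mir221: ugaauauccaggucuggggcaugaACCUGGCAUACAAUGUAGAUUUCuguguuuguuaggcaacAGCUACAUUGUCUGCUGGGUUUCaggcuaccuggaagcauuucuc

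In RefSeq's annotation of assembly GRCr8, Mir222 lies at chrX:6022621-6022723 and Mir221 at chrX:6023182-6023290, both on the plus strand, with 458 bases between the hairpins. The build behind the count table is not given in the sources used here, so these positions describe the RefSeq sequences and not the authors' mapping. The hairpins overlap the annotated long noncoding RNA genes LOC120099382 and LOC120099384, and the nearest protein-coding gene before them is Chst7. Of 57 miRNA genes placed on the X chromosome, Mir222 and Mir221 were numbers 1 and 2 in order of position.

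**Figure D1:**
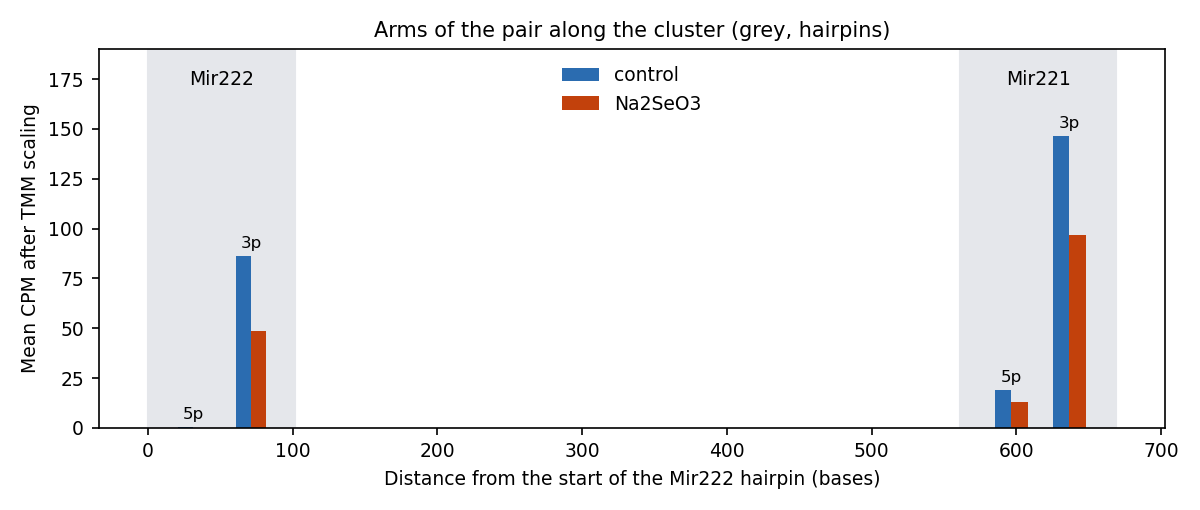
Mean CPM after TMM scaling (vertical axis) of each arm, drawn at its place along the cluster in bases from the start of the Mir222 hairpin (horizontal axis), with grey bands for the hairpins, blue bars for the 3 control libraries and orange bars for the 3 Na2SeO3 libraries. The 3p arms carry most reads of both genes, the 5p arm of miR-222 is close to 0, and each orange bar is lower than its blue neighbour.

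The depth of the libraries set how well the pair could be measured. Counts summed to between 1806596 and 2829903 in the control libraries and 663096 to 968151 in the Na2SeO3 libraries, so that 3 counts, taken here as the smallest number a library shows reliably, correspond to 1.04 to 1.94 CPM after TMM scaling in the former, where CPM gives counts as parts of the whole library, and 2.72 to 4.36 CPM in the latter. Only counting error is covered by these limits and by the intervals given for shares, since PCR copies of a molecule cannot be recognised here. All levels are CPM after TMM scaling, in which library sizes are set so that most miRNAs do not change. Lens and surface epithelium miRNAs from a marker list were found in all libraries, among them miR-184 and miR-204-5p, which are known from this tissue, and miRNAs known from neural retina were also abundant.

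Both 3p arms were lower in the Na2SeO3 group than in the control group, miR-222-3p at 0.57 of the control level and miR-221-3p at 0.66. In each of these 2 arms, every control library lay above every Na2SeO3 library. The 5p arm of miR-221 was also lower on average, but its libraries overlapped and it did not pass the test. No arm reached the study's definition of a DEmiRNA, an adjusted p-value under 0.05 together with an absolute log2 fold change over 1.

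The 3p arm of miR-221 was the most counted member of the pair. It had 422, 298, and 216 counts in control libraries 1 to 3 and 75, 115, and 70 counts in Na2SeO3 libraries 1 to 3. After scaling, the control libraries stood at 146, 154, and 140 CPM and the Na2SeO3 libraries at 109, 104, and 76.9 CPM. The groups did not overlap, the control libraries lay close together, and Na2SeO3 library 3 was the lowest of the 6. The means were 146 ± 7.20 CPM and 96.8 ± 17.4 CPM (SD, n = 3 each). The log2 fold change of miR-221-3p was -0.60 (standard error 0.19, 95% interval -1.0 to -0.20), with an adjusted p of 0.0229 in the quasi-likelihood F-test of edgeR (QL test below), adjusted by Benjamini and Hochberg's method over 341 miRNAs.

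The 3p arm of miR-222, which carries the same seed, had 230, 162, and 147 counts in control libraries 1 to 3 and 32, 64, and 38 counts in Na2SeO3 libraries 1 to 3. These were 79.4, 83.7, and 95.05 CPM in the control group and 46.6, 58.0, and 41.8 CPM in the Na2SeO3 group. Here too the groups did not overlap, and Na2SeO3 library 3 was again the lowest. The means were 86.0 ± 8.09 CPM and 48.8 ± 8.37 CPM (SD, n = 3 each). The log2 fold change of miR-222-3p was -0.81 (standard error 0.20, 95% interval -1.25 to -0.37), with an adjusted p of 0.0083 in the edgeR QL test.

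The 5p arm of miR-221, the less used strand of its precursor, had 40, 45, and 31 counts in control libraries 1 to 3 and 4, 19, and 14 counts in Na2SeO3 libraries 1 to 3. The scaled values were 13.8, 23.3, and 20.0 CPM and then 5.82, 17.2, and 15.4 CPM. The groups overlapped, since control library 1 lay below Na2SeO3 libraries 2 and 3, and the 4 counts of Na2SeO3 library 1 were close to the 3 counts taken as that limit. The means were 19.0 ± 4.80 CPM and 12.8 ± 6.13 CPM (SD, n = 3 each). The log2 fold change of miR-221-5p was -0.49 (standard error 0.37, 95% interval -1.29 to 0.31, adjusted p = 0.348 in the edgeR QL test), an interval that holds the values of both 3p arms as well as 0.

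The 5p arm of miR-222 was counted in a single library, with 2 counts in control library 3 and 0 in the other 5. It was too rare to be tested, and with both groups at or under 3 counts no fold change is given. Per library, a level of up to 1.94 CPM in the control group and 4.36 CPM in the Na2SeO3 group, on the scale after TMM, would not have been seen reliably.

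**Figure D2:**
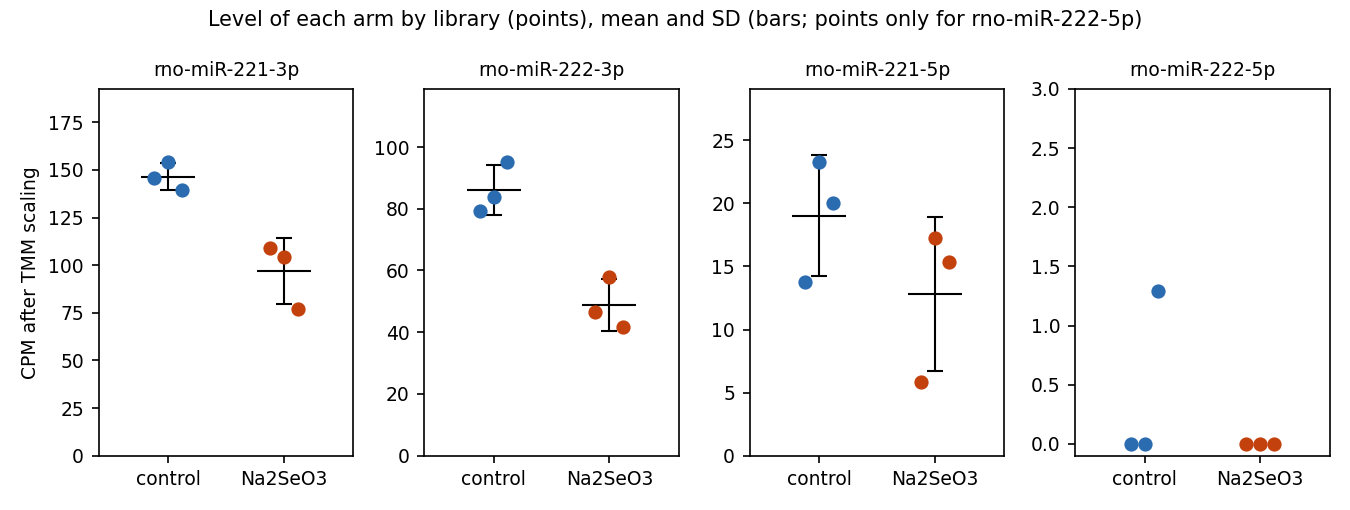
CPM after TMM scaling (vertical axes, each starting near 0 with its own range) of the 4 names in each library, as points for the control group (blue) and the Na2SeO3 group (orange), with the mean and SD (n = 3 each) as bars, except for rno-miR-222-5p, which has points only. The groups are apart for rno-miR-221-3p and rno-miR-222-3p, overlap for rno-miR-221-5p, and stand at or near 0 for rno-miR-222-5p.

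Of the 341 miRNAs tested, 56 (16.4%) were DEmiRNAs and 17 (4.99%) were down-regulated DEmiRNAs, and 0 of the 3 tested members of the pair were among them by the edgeR QL test, as by edgeR's exact test and DESeq2, although 2 of the 3 had an unadjusted p-value under 0.05. An adjusted p-value under 0.05 with a lower level in the Na2SeO3 group was met by 47 miRNAs (13.8%), which include 2 of the 3 members. The groups did not overlap, with the Na2SeO3 group lower, in 72 miRNAs (21.1%), again including these 2 members. Over all miRNAs tested the median log2 fold change was 0.08, so that both 3p arms lay below the bulk of the table. With 3 members, these shares describe the pair and were not tested.

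**Figure D3:**
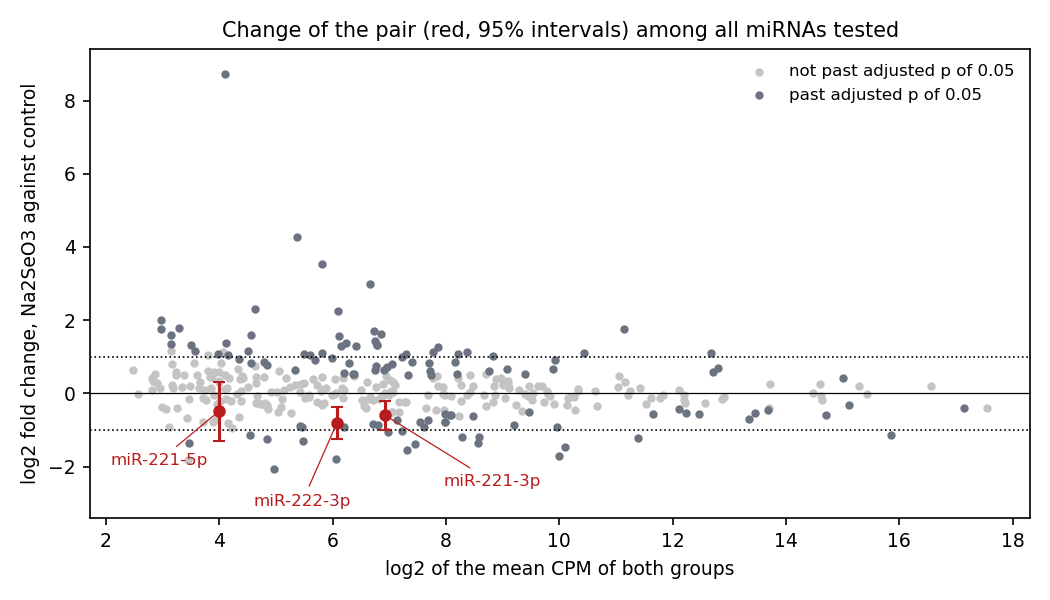
Log2 fold change of the Na2SeO3 group against the control group (vertical axis) and log2 of the mean CPM of both groups (horizontal axis) for the 341 miRNAs tested, in dark grey where the adjusted p-value was under 0.05 and light grey elsewhere. The 3 tested members of the pair are in red with 95% intervals, and all 3 lie between 0 and the dotted line at -1, with the interval of rno-miR-221-5p crossing 0.

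The abundance of the pair in the lens capsule was moderate. In the control group miR-221-3p stood at rank 144 and miR-222-3p at rank 178 of the 341 miRNAs tested, where the median miRNA had a mean of 97.6 CPM. In the Na2SeO3 group, with a median of 106 CPM, the ranks were 183 and 220. The 5p arm of miR-221 went from rank 265 to rank 306. The order miR-221-3p, miR-222-3p, miR-221-5p, miR-222-5p held in each of the 6 libraries, and within a library miR-221-3p always had more counts than miR-222-3p. Levels of different miRNAs are compared here as reads per name, without a length correction, since the tested arms have 21 to 23 bases.

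The joint level of the pair was taken as the sum of both 3p arms, which share their seed. Control libraries 1 to 3 reached 225, 238, and 235 CPM, and Na2SeO3 libraries 1 to 3 reached 156, 162, and 119 CPM. The control libraries spread little, and the groups did not overlap. The means were 232 ± 6.63 CPM and 146 ± 23.5 CPM (SD, n = 3 each), and the difference on the log2 scale was -0.69 (two-sided exact permutation test, p = 0.1, which is the lowest value this design can give). With all 4 names summed the difference was -0.68 (exact permutation test, p = 0.1).

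The ratio of the 3p arms to each other does not depend on how the libraries are scaled, and it tells whether miR-221-3p and miR-222-3p changed by the same amount. Control libraries 1 to 3 gave ratios of 1.83, 1.84, and 1.47, and Na2SeO3 libraries 1 to 3 gave 2.34, 1.80, and 1.84. Only control library 3 and Na2SeO3 library 1 stood apart from a ratio of about 1.8, and the groups overlapped. The mean was 1.71 ± 0.21 in the control group and 1.99 ± 0.30 in the Na2SeO3 group (SD, n = 3 each). On the log2 scale the Na2SeO3 group was 0.22 higher (two-sided exact permutation test, p = 0.4), so that a different change of the 2 arms was not shown, which is not evidence that they changed alike.

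The arm ratio of miR-221 was compared in the same way. The 3p arm took 91.3% of the miR-221 reads in control library 1 (95% exact binomial interval 88.4 to 93.7%), 86.9% in control library 2 (82.8 to 90.3%), and 87.4% in control library 3 (82.7 to 91.3%). In Na2SeO3 libraries 1 to 3 it took 94.9% (87.5 to 98.6%), 85.8% (78.7 to 91.2%), and 83.3% (73.6 to 90.6%). The highest and the lowest share were both found in the Na2SeO3 group, whose intervals are wide because 79 to 134 reads of miR-221 stood behind each share. The group means were 88.6% ± 2.43 and 88.0% ± 6.11 (SD, n = 3 each).

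As a ratio of counts, the 3p arm exceeded the 5p arm 10.6, 6.62, and 6.97 times in control libraries 1 to 3 and 18.8, 6.05, and 5.00 times in Na2SeO3 libraries 1 to 3. Na2SeO3 library 1, with its 4 counts of the 5p arm, gave the highest of these values. The mean log2 ratio was 2.98 ± 0.37 and 3.05 ± 1.03 (SD, n = 3 each), a difference of 0.07 (two-sided exact permutation test, p = 1.0). The sign of the difference was not settled, since it was -0.52 without Na2SeO3 library 1, -0.05 without control library 2, and -0.01 without control library 3, and the fitted log2 fold changes, which weight libraries by depth, differed by 0.11 the other way.

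**Figure D4:**
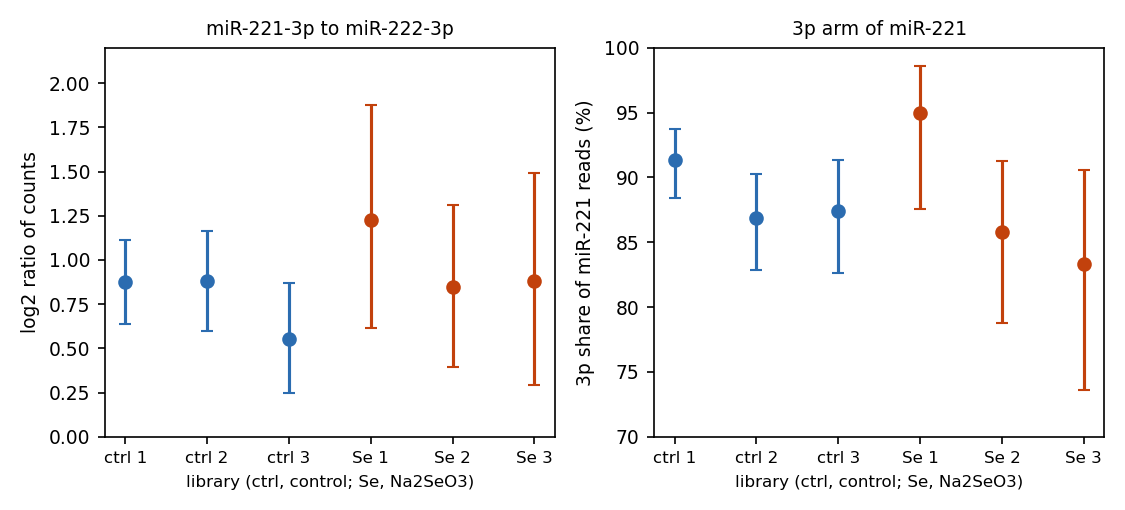
Left, log2 ratio of miR-221-3p to miR-222-3p counts (vertical axis) in each library (horizontal axis), and right, share of miR-221 reads from the 3p arm in percent (vertical axis, from 70 to 100), with 95% exact binomial intervals for counting error and with control libraries in blue and Na2SeO3 libraries in orange. The groups overlap in both plots, and the intervals of the Na2SeO3 libraries are the wider ones.

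Other miRNAs give a sense of how closely such partners move. For 62 precursors with both arms tested, the log2 fold changes of the arms differed by a median of 0.35 (quartiles 0.16 and 0.56), and miR-221, at 0.11, was number 14 from the smallest difference. For 53 pairs of neighbouring miRNA genes on the same strand within 10000 bases, the median difference was 0.27 (quartiles 0.10 and 0.51), and 45 of the 53 pairs had changes of the same sign. The pair, at 0.21, was number 21 of these 53. Many of the 53 come from long runs of genes, such as those from Mir493 to Mir136 and from Mir379 to Mir410. All pairs within these runs had positive log2 fold changes, so the 45 of the same sign are not separate loci. Among 120 pairs of tested names with the same seed the median was 0.26, and miR-221-3p and miR-222-3p were number 54. Many of the 120 are pairs of let-7 and miR-98 names. The pairs let-7a-1-3p with let-7c-2-3p and miR-129-1-3p with miR-129-2-3p have identical counts, and so a difference of 0. The pairs in all these comparisons share libraries and, in part, members, so that no test was made. How these places move without a library was not computed, but the differences of the pair itself did move. Without Na2SeO3 library 1 the arms of miR-221 differed by 0.49 and the 3p arms of the pair by 0.08, without control library 3 the differences were 0.16 and 0.10, and without any one of the other 4 libraries they lay between 0.11 and 0.23 for the arms and between 0.24 and 0.29 for the pair. Under the other scalings, filters, tests and models, all libraries kept, the differences ranged from 0.01 (replicate block) to 0.17 (raw reads) for the arms and from 0.18 to 0.21 for the pair.

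The profile over the 6 libraries most like that of miR-221-3p was that of miR-125b-1-3p, with a root-mean-square difference of 0.10 in log2 CPM after each profile was centred on its mean. It was followed by let-7a-1-3p and let-7c-2-3p, both at 0.11, whose counts are identical in each library. For miR-222-3p the closest profiles were those of miR-145-5p (0.10), miR-205 (0.12), and miR-148a-5p (0.13). The members of the pair were close to each other without being nearest, at 0.19, which made miR-222-3p number 12 of 340 for miR-221-3p and miR-221-3p number 8 of 340 for miR-222-3p. The 5p arm of miR-221 lay further from its own 3p arm, at 0.57.

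The pair was also set beside the other miRNAs of its chromosome. Apart from the pair, 32 X-linked names that RefSeq gives to 1 gene only were tested. By the edgeR QL test 9 of the 32 rose at an adjusted p-value under 0.05, where 20.8% of all miRNAs tested did, and 0 fell (12 and 4 at an unadjusted p-value under 0.05, and 7 and 2 at an adjusted one by DESeq2, by which 15.8% of all miRNAs tested rose and 16.4% fell), where 13.8% of all miRNAs tested fell. The rises numbered 5, 5, and 4 without control library 1, 2 or 3 and 5 without Na2SeO3 library 3, and without Na2SeO3 library 1 there were 10 rises and 1 fall. Their median log2 fold change was 0.22, against 0.08 for all miRNAs tested, but without Na2SeO3 library 1 these medians were 0.03 and 0.08, so that the order turned. With library totals alone as the scale the X-linked median was 0.41 with 12 rises and 0 falls, where the median of all miRNAs tested was 0.27, 28.2% rose and 8.80% fell. With raw reads as the scale it was -0.90 with 0 rises and 15 falls, where the median of all was -1.07, 1.76% rose and 61.0% fell. The nearest tested gene after Mir221 was Mir532, whose miR-532-5p had a value of 0.49 and missed the threshold of the edgeR QL test (adjusted p = 0.0521). Among the 9 were miR-351-5p, with a log2 fold change of 1.31, and miR-542-3p, also with 1.31, both of a cluster known for cell cycle miRNAs. The same cluster gave miR-450a-5p (1.01), miR-450b-5p (0.85) and miR-322-3p (0.75), also among the 9, so the 9 are not separate loci.

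Of 18 other miRNAs often studied in the stressed lens, a list chosen with earlier results of these data known, 4 fell and 1 rose at an adjusted p-value under 0.05 in the edgeR QL test, where 13.8% of all miRNAs tested fell and 20.8% rose. The falls numbered 2 without control library 1 or 2, 1 without control library 3, and 2 without Na2SeO3 library 2 or 3, and 0 rose without control library 1 or 2 or Na2SeO3 library 3. Those that fell with all libraries were miR-210-3p, the miRNA known for its rise under low oxygen, with a log2 fold change of -1.03 (adjusted p = 0.0015), miR-21-5p with -0.52, miR-30a-5p with -0.52, and miR-26a-5p with -0.33. The muscle and metabolic miRNA miR-378a-3p rose by 0.59. The values of miR-34a-5p, a p53 target, and of miR-124-3p, a neural miRNA, were -0.33 and -0.12 and did not pass. The median of the 18 was -0.17, and it was 0.02 with 2 rises and 1 fall when library totals alone set the scale (28.2% and 8.80% of all miRNAs tested), so that its sign depended on the scaling. With raw reads as the scale it was -1.32, with 0 rises and 16 falls, where the median of all miRNAs tested was -1.07, 1.76% rose and 61.0% fell.

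Because miR-221 and miR-222 are known from vascular cells, the miRNAs of other cell types were checked in the same libraries. Of 6 names from vascular cells, miR-143-3p, miR-145-5p, and miR-145-3p, which are known from smooth muscle, fell by 0.60, 0.85, and 0.73 on the log2 scale (adjusted p of at most 0.0101 in the edgeR QL test). The other arm of the miR-143 precursor, miR-143-5p, had a log2 fold change of 0.02 and did not pass (adjusted p = 0.935 in the same test). The endothelial miR-126a-3p had a log2 fold change of 0.24. With 3 of the 6 lower, where 13.8% of all miRNAs tested fell and 20.8% rose, 0 of the 6 rose, also at an unadjusted p-value under 0.05 and by DESeq2 (by which 16.4% of all miRNAs tested fell and 15.8% rose). The 3 that fell come from the neighbouring genes Mir143 and Mir145, so they stand for a single locus. With library totals alone as the scale 2 fell and 1 rose, where 8.80% of all miRNAs tested fell and 28.2% rose. With raw reads as the scale all 6 fell, with a median of -1.45, where 61.0% of all miRNAs tested fell with a median of -1.07 over all. Together the 6 names took 4.87 to 5.68% of the counts in the control libraries and 5.17 to 5.35% in the Na2SeO3 libraries, and none was at 0. The part of these cells in the change of the pair was not tested. In bulk tissue, fewer cells of a type and less of an RNA per cell cannot be told apart.

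The names of lens and surface epithelium moved in the direction of the pair. Of 8 names, 6 fell at an adjusted p-value under 0.05 by the edgeR QL test and 0 rose, where 13.8% of all miRNAs tested fell and 20.8% rose. At an unadjusted p-value under 0.05, and at an adjusted one by DESeq2 (16.4% of all fell and 15.8% rose), 7 fell and 0 rose. The names of the miR-200 family among the 8 (miR-200a-3p, miR-200b-3p, miR-429, miR-200c-3p and miR-141-3p) come from clustered genes, so the 8 are not separate loci. Among the 8, 3 were down-regulated DEmiRNAs, and the median log2 fold change was -0.92, which stayed between -0.73 and -1.01 under the other scalings within the counted miRNAs. The largest name was miR-184, with means of 81388 CPM in the control group and 37222 CPM in the Na2SeO3 group. The next, miR-204-5p, overlapped between the groups and did not pass (-0.40, adjusted p = 0.0869 in the edgeR QL test). Mostly through miR-184, the list took 8.79 to 9.92% of the counts in the control libraries and 4.72 to 5.89% in the Na2SeO3 libraries. The names of neural retina took 17.9 to 19.9% and 24.3 to 25.4%, and of these 7 names 1 rose, miR-9a-5p, and 0 fell, also unadjusted (with DESeq2 0 rose and 0 fell, and 0 rose by the edgeR QL test without any one of the control libraries or without Na2SeO3 library 1 or 3). With library totals alone as the scale 3 of the 7 retina names rose and 0 fell, with a median log2 fold change of 0.35, where 28.2% of all miRNAs tested rose and 8.80% fell, with a median of 0.27. Of 3 tested red cell names, miR-486 rose by 1.12, from a mean of 137 CPM in the control group to 300 CPM in the Na2SeO3 group. The others did not pass, with miR-451-5p at 0.06 (128 and 133 CPM) and miR-144-5p at 0.41. Mostly through miR-486, the list took 0.0219 to 0.0285% of the counts in the control libraries and 0.0418 to 0.0537% in the Na2SeO3 libraries. Of 5 tested leukocyte names 0 passed by the edgeR QL test, at an adjusted or an unadjusted p-value, or by DESeq2. With raw reads as the scale, where 61.0% of all miRNAs tested fell and 1.76% rose, with a median of -1.07, 0 names of these 4 lists rose, and the falls were 8 of 8 for epithelium, 7 of 7 for retina (median -0.99), 1 of 3 for red cells, and 4 of 5 for leukocytes. The part of any of these lists in the change of miR-221 and miR-222 was not tested.

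The size of the change depended on the scale, whereas its direction was the same in every setting tried. Under 9 other scalings, filters, tests and models, raw reads left out, the log2 fold change of miR-222-3p lay between -0.89 and -0.60 and its adjusted p-value stayed under 0.05 in all 9. For miR-221-3p the range was -0.69 to -0.41, and the adjusted p-value was under 0.05 in 8 of the 9, reaching 0.124 with library totals alone. Leaving out each library in turn kept miR-222-3p at an adjusted p-value of at most 0.0450, whereas miR-221-3p rose to 0.0760, 0.0908, and 0.0595 without control library 1, 2 or 3 and to 0.0804 without Na2SeO3 library 3 (edgeR QL test). These fits rest on 5 libraries, which leaves less power. Without Na2SeO3 library 3, however, the log2 fold change of miR-221-3p was itself smaller, at -0.47 (standard error 0.17). Without Na2SeO3 library 1 or 2 miR-221-3p still passed (adjusted p = 0.0121 and 0.0309, edgeR QL test).

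Fewer of the raw reads were counted on miRNA names in the Na2SeO3 libraries, 11.4 to 13.0%, than in the control libraries, 25.6 to 39.7%. Per raw read, the log2 fold changes of the pair were therefore larger, at -1.93 for miR-222-3p, -1.75 for miR-221-3p, and -1.58 for miR-221-5p, and all 3 passed both thresholds of a DEmiRNA (adjusted p of at most 0.0029 in the edgeR QL test), as did 182 of the 341 miRNAs tested (53.4%). On this scale the median of all miRNAs tested also moved, to -1.07. Relative to that median the values were -0.86 for miR-222-3p and -0.69 for miR-221-3p, beside -0.89 and -0.68 relative to the median after TMM scaling. A change of scale moves all miRNAs by nearly the same amount, so these values had to lie close together.

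**Figure D5:**
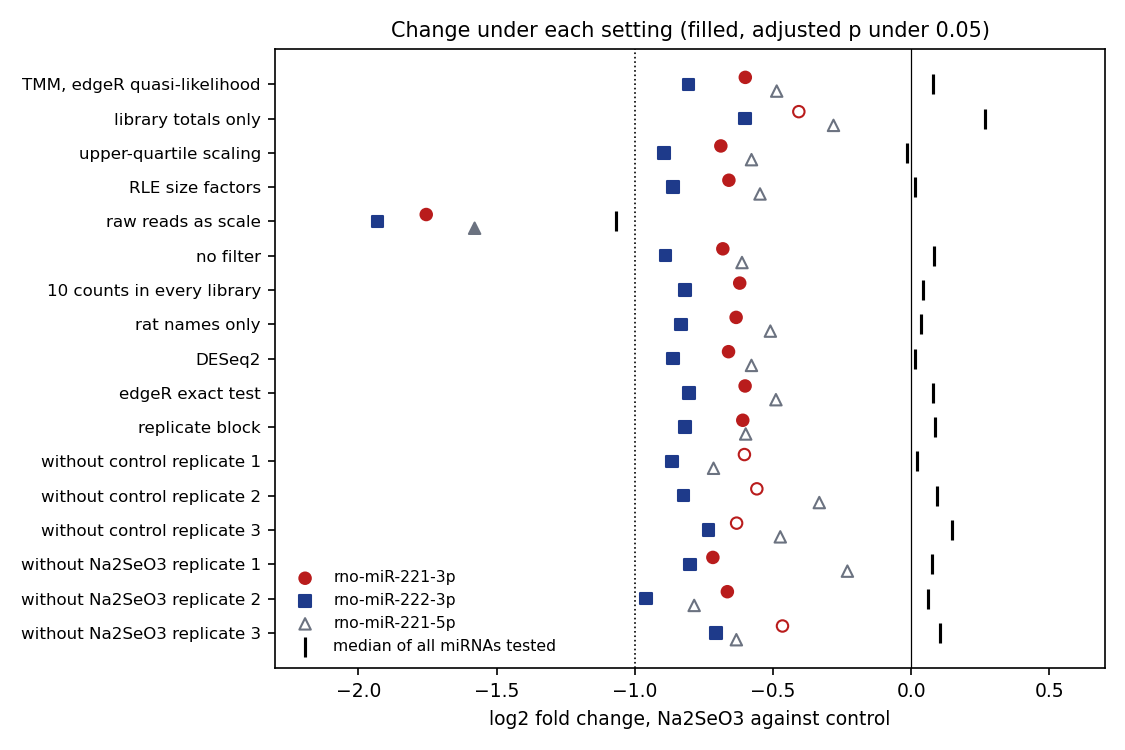
Log2 fold change of the Na2SeO3 group against the control group (horizontal axis) of the 3 tested members under each scaling, filter, test and set of libraries (vertical axis), filled where the adjusted p-value was under 0.05, with black ticks for the median of all miRNAs tested. All values of the 3 members lie below 0, rno-miR-222-3p is filled throughout, and only the scaling to raw reads takes the pair past the dotted line at -1.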

How the data were processed

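Small RNA of 3 control and 3 Na2SeO3 lens capsule samples was sequenced. Cutadapt and Fqtrim were used by the authors for trimming, FastQC for quality control, and miRDeep and HISAT2 for comparison with a rat genome from Ensembl, without a statement of which of these served the small RNA reads. The authors deposited read counts per miRNA name and library, neither normalized nor pooled. The build and tool versions are not given in the sources used here.

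Names were kept with filterByExpr at a minimum count of 10 (341 of 910), scaled with TMM and compared with the quasi-likelihood F-test of edgeR (the QL test), adjusted by Benjamini and Hochberg's method over all names kept, with no other factor. Standard errors were derived from the F value, and profiles used log2 CPM with a prior count of 2. For ratios and sums, groups were compared by two-sided exact permutation. The tools were R 4.3.3, edgeR 4.0.16, DESeq2 1.42.0 and SciPy 1.17.1, and the fit was tested on simulated data. Sequences and gene order are from RefSeq (GRCr8), where 296 of 326 rat names tested were found. The raw-read scale used the study's read totals.

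The members and lists were chosen with earlier results of these data known. Named were all names of the pair, the 3 closest profiles of each 3p arm, the nearest tested neighbour, and up to 4 members of each list, and list members beyond 4 and the X-linked names were chosen after their values were seen. Different animals carry the same replicate numbers, and p-values measure the spread between these animals.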

Additional observations from a re-analysis of the deposited data

How the results depend on the processing

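With library totals alone as the scale, the log2 fold change of miR-221-3p was -0.41 and no longer passed (adjusted p = 0.124, edgeR), and the summed level of both 3p arms differed by -0.49. With raw reads as the scale that sum differed by -1.80, miR-221-5p was at -1.58 and passed (adjusted p = 0.0029), and 182 miRNAs were DEmiRNAs and 214 passed an adjusted p-value of 0.05, against 56 and 118. Both shifts follow the median of all miRNAs tested, which was 0.27 and -1.07 on these scales. With each library left out, the range was -0.72 to -0.47 for miR-221-3p, -0.96 to -0.71 for miR-222-3p, -0.79 to -0.23 for miR-221-5p, -0.77 to -0.55 for the sum, -0.52 to 0.44 for the arm ratio, 0.09 to 0.29 for the ratio of the 3p arms, 45 to 62 for DEmiRNAs, and 73 to 128 for miRNAs past the adjusted p-value, where 73 and 75 were found without control library 2 and 3. With the replicate number as a block, miR-221-3p was at -0.61 (adjusted p = 0.0354), miR-222-3p at -0.82 (adjusted p = 0.0171) and miR-221-5p at -0.60 (adjusted p = 0.254), with 49 DEmiRNAs, and no call of the pair changed. Across miRNAs, deviations from the group mean in libraries with the same number correlated at -0.17, -0.18, and -0.26, and 0 of 3 control libraries correlated best with its own number, so the numbers were not taken to pair the animals. Adding 0.5 to each count changed no ratio by more than the spread between libraries. With at least 10 counts in every library miR-221-5p could not be tested, and miR-222-5p could be fitted only without a filter, where no fold change is given because both groups stood at or under 3 counts.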
